A study of Mus musculus with 12 samples.

Results

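The transcripts of 31 genes of cholesterol synthesis, uptake and efflux were followed in mouse brown adipose tissue under high-fat diet (HFD) and cold. The genes were taken by name, whatever their values, and 31 of the 61210 genes in the deposited table carry these names. All 31 passed the filter on low counts and were among the 16737 genes tested. They comprise 19 enzymes of synthesis, 4 genes that regulate the transcription factor SREBP2, 6 genes of uptake, intracellular transport and storage, and 2 exporters. The 31 names do not cover every gene of the pathway.

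Total RNA was sequenced from iBAT of wild type C57BL/6N mice aged 20 weeks, in 4 groups of 3 libraries. All mice ate chow up to 8 weeks of age, after which the HFD groups received HFD for 12 weeks and the others a control diet (NCD). On each diet, 1 group stayed at room temperature (RT) and 1 was kept at 4 °C for 24 h (cold), which gave the groups NCD RT, NCD cold, HFD RT and HFD cold. The study's methods read iBAT as interscapular brown adipose tissue, whereas the design text of the series calls it inguinal. Sex, and whether a library held 1 animal or a pool, were not given in the sources used here, so the p-values measure the spread between these libraries, part of which may be technical.

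Replicates 1 and 2 of each group formed 1 labelled batch of 8 libraries with 15136861 to 21026727 counts, and replicate 3 of each group formed the other batch of 4 libraries with 34067515 to 46740702 counts. Levels are given as CPM (gene counts scaled to a common library total, with TMM as the scaling) and summarised as mean ± SD over n = 3 libraries. The lowest count of any member in any library was 60, for Soat1. All 8 brown adipocyte markers were detected, and Ucp1, the uncoupling protein of brown fat, stood at 3784 to 18791 CPM, whereas the summed hepatocyte markers reached at most 5.59 CPM. The summed skeletal muscle markers ranged from 516 to 15890 CPM and varied within every group. In bulk tissue, fewer cells of a type and less RNA per cell cannot be told apart.

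Cholesterol is built from acetyl-CoA through mevalonate, farnesyl diphosphate, squalene and lanosterol. When sterols in the endoplasmic reticulum are scarce, SCAP escorts SREBP2 to the Golgi apparatus, where it is cleaved and then activates the genes of synthesis and uptake, and when sterols are plentiful the INSIG proteins hold SCAP back. Surplus cholesterol is esterified for storage or exported by ABC transporters, whose genes are activated by the oxysterol receptors LXR, and brown adipose tissue is known to take up lipoprotein-derived lipid when it is activated by cold.

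HFD lowered most of the synthesis enzymes at both temperatures. A gene was called when its adjusted p was under 0.05 and its log2 fold change exceeded 0.5 in size. At RT, 13 of the 31 members were called, all lower on HFD, beside 2.09% of all genes tested (1.09% lower and 0.992% higher). In the cold, 17 members were called, 15 lower and 2 higher on HFD, beside 4.75% of all genes (2.69% lower and 2.06% higher). The same 12 members were lower at both temperatures, beside 0.621% of all genes. The enzymes made up 11 of the 13 members lower at RT and 13 of the 15 lower in the cold. The median log2 fold change of the 19 enzymes was -1.10 at RT and -0.95 in the cold, against 0.03 and 0.02 over all genes. Both diet contrasts were fitted to all 12 libraries and rest on different libraries, although each of them shares a group with each cold contrast.

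**Figure D1:**
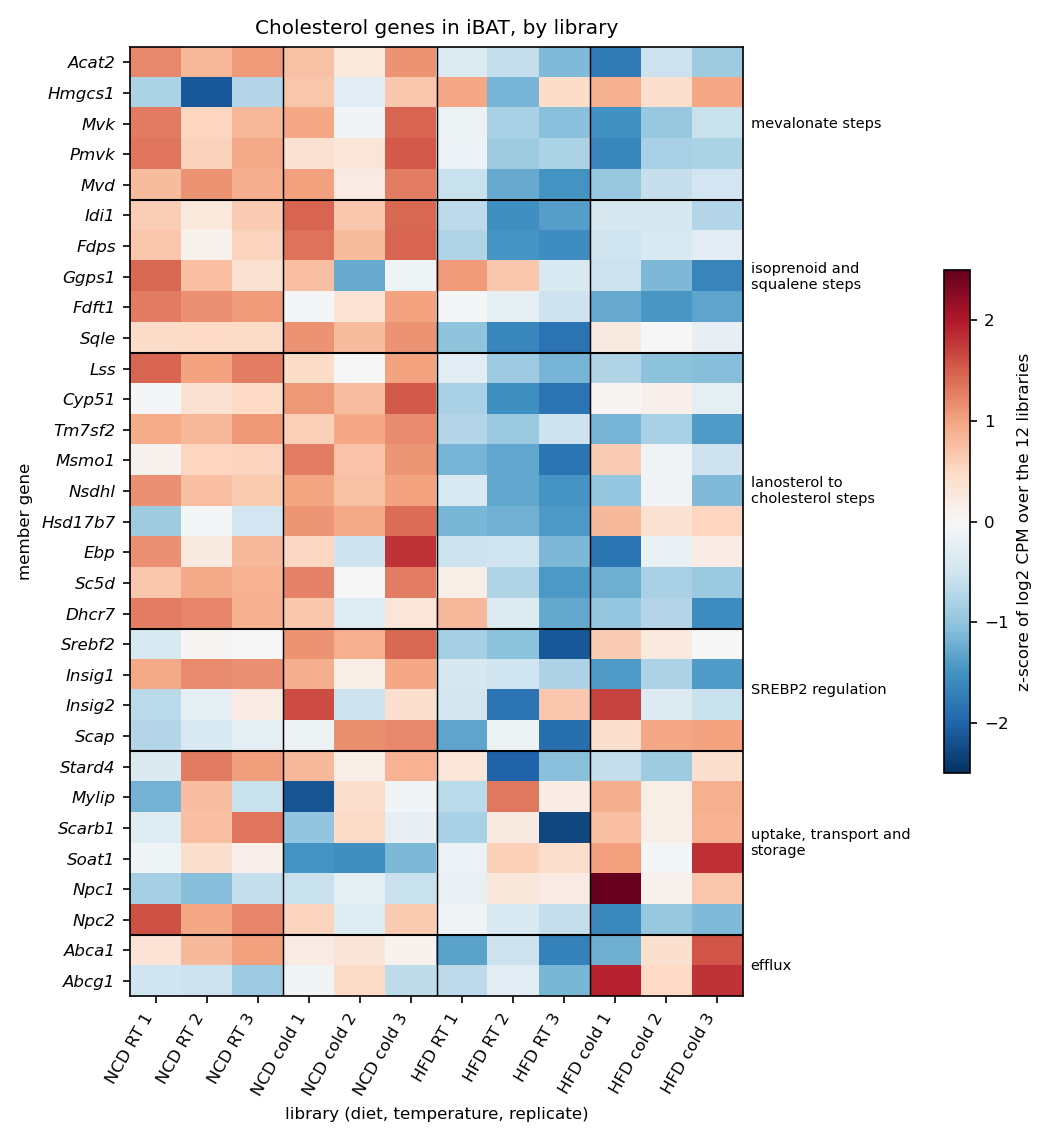
Log2 CPM of the 31 members (vertical axis, grouped by role) in the 12 libraries (horizontal axis), each gene standardised to a z-score over the libraries (colour scale, SD units). The mean z-score of the 19 enzymes lay between 0.27 and 1.14 in the 6 NCD libraries and between -1.14 and -0.30 in the 6 HFD libraries.

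Along the mevalonate steps, Acat2, which joins 2 molecules of acetyl-CoA in the cytosol, fell on HFD. It stood at 422, 351 and 394 CPM in NCD RT and at 200.1, 178 and 139.9 CPM in HFD RT, a 2.26-fold lower level (log2 fold change -1.17 ± 0.22 (SE), adjusted p = 0.0211). In the cold it stood at 335, 269 and 406 CPM on NCD and 102, 184 and 155 CPM on HFD (-1.20 ± 0.22, adjusted p = 0.0130). At neither temperature did the diets overlap. Mvd, the decarboxylase that forms isopentenyl diphosphate, fell by the most of these steps, from 20.2 ± 2.02 to 6.51 ± 1.88 CPM at RT (-1.65 ± 0.25, adjusted p = 0.00786) and from 19.7 ± 5.78 to 8.13 ± 1.11 CPM in the cold (-1.27 ± 0.24, adjusted p = 0.0148). The kinases Mvk and Pmvk, which phosphorylate mevalonate in turn, were lower in every HFD library than in every NCD library at the same temperature. Both passed the threshold in the cold and missed it at RT, a split that depended on the fit. The log2 fold change of Mvk was -0.56 ± 0.16 at RT (adjusted p = 0.101) and -0.66 ± 0.16 in the cold (adjusted p = 0.0405), and that of Pmvk was -1.03 ± 0.24 (adjusted p = 0.0539) and -1.22 ± 0.24 (adjusted p = 0.0179). With 1 library left out, Mvk in the cold was called in 3 of 12 fits (adjusted p up to 0.168), while Pmvk at RT was called in 5 of 9 other fits, and a difference between the temperatures was not shown for either gene (interaction, unadjusted p = 0.665 and 0.572).

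Hmgcs1, the cytosolic HMG-CoA synthase upstream of mevalonate, was the exception among the enzymes, since its fitted change on HFD was above 0 at both temperatures. It stood at 365, 260.2 and 370.0 CPM in NCD RT, 535, 419 and 532 CPM in NCD cold, 574, 333 and 505 CPM in HFD RT and 563, 496 and 573 CPM in HFD cold. The diets overlapped at both temperatures. The log2 fold change on HFD was 0.50 at RT (95% interval 0.06 to 0.95, adjusted p = 0.221) and 0.14 in the cold (95% interval -0.31 to 0.58, adjusted p = 0.763), so a rise was not called, while a fall of the size seen in Acat2 lay outside both intervals. An antisense gene, Gm48342, shares 12.1% of the exon bases of Hmgcs1 and was itself counted at 0 to 0.186 CPM in the libraries. Whether the counting used strand was not given in the sources used here.

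In the isoprenoid and squalene steps, 4 of 5 enzymes were lower on HFD at both temperatures. Idi1, which isomerises isopentenyl diphosphate, stood at 90.9, 76.7 and 91.9 CPM in NCD RT and 47.9, 30.8 and 33.4 CPM in HFD RT, and at 140.3, 94.5 and 138 CPM in NCD cold and 54.7, 54.9 and 46.4 CPM in HFD cold. The 6 HFD libraries thus all lay below the 6 NCD libraries, with log2 fold changes of -1.21 ± 0.19 at RT (adjusted p = 0.00909) and -1.26 ± 0.19 in the cold (adjusted p = 0.00500). Fdps, the farnesyl diphosphate synthase, fell by a like amount, from 112 ± 15.4 to 52.4 ± 10.8 CPM at RT (-1.09 ± 0.16, adjusted p = 0.00786) and from 157 ± 24.2 to 76.6 ± 3.85 CPM in the cold (-1.04 ± 0.16, adjusted p = 0.00624). A same-strand gene model, Gm43738, covers 26.7% of the Fdps exon bases but held 0 counts in every library. Ggps1, which makes geranylgeranyl diphosphate for protein prenylation rather than for sterols, had a log2 fold change of -0.09 at RT (95% interval -0.38 to 0.21) and -0.21 in the cold (95% interval -0.50 to 0.08), and passed the threshold in neither.

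Fdft1 and Sqle catalyse consecutive steps, the synthesis of squalene and its epoxidation. Sqle (GRCm38 chr15:59315077-59331192) stood at 44.3, 45.7 and 44.6 CPM in NCD RT and 15.4, 9.72 and 8.33 CPM in HFD RT, which was the largest fall of any member on HFD at RT (4.05-fold, -2.02 ± 0.21, adjusted p = 0.00116). In the cold it stood at 71.4, 55.8 and 71.6 CPM on NCD and 37.1, 31.4 and 27.4 CPM on HFD, a 2.08-fold lower level (-1.05 ± 0.20, adjusted p = 0.0157). Fdft1 (GRCm38 chr14:63145150-63179578) stood at 125, 113 and 106 CPM in NCD RT and 50.6, 44.0 and 36.1 CPM in HFD RT (-1.40 ± 0.22, adjusted p = 0.00943). In the cold its levels were 50.8, 64.9 and 103 CPM on NCD and 21.8, 19.3 and 21.1 CPM on HFD (-1.82 ± 0.22, adjusted p = 0.00198), which was the largest fall of any member on HFD in the cold. For both genes every HFD library lay below every NCD library at the same temperature. Ctsb, a lysosomal protease gene on the opposite strand, shares 18.3% of the Fdft1 exon bases and stood at 848 to 1936 CPM. Its own log2 fold change on HFD was -0.49 at RT and -0.37 in the cold, and it passed the threshold in no contrast.

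All 9 enzymes from lanosterol to cholesterol had log2 fold changes below 0 on HFD, and 5 of the 9 passed the threshold at each temperature. Lss, the lanosterol synthase, fell from 119.9 ± 11.6 to 51.2 ± 10.1 CPM at RT (-1.23 ± 0.17, adjusted p = 0.00545) and from 88.2 ± 18.7 to 47.2 ± 3.61 CPM in the cold (-0.90 ± 0.17, adjusted p = 0.0142). Tm7sf2, a sterol C14 reductase, stood at 10.4, 12.8 and 14.3 CPM in NCD cold and 3.87, 4.71 and 3.36 CPM in HFD cold, and fell on HFD with the smallest adjusted p of any member in the cold (-1.66 ± 0.17, adjusted p = 0.000872, and at RT -1.34 ± 0.17, adjusted p = 0.00367). Vps51 shares 12.1% of its exon bases on the same strand and passed the threshold in no contrast. The lanosterol demethylase Cyp51 and the C4 decarboxylase Nsdhl were also lower at both temperatures, with log2 fold changes of -1.17 ± 0.20 and -1.11 ± 0.20 at RT (adjusted p = 0.0120 and 0.0157) and of -0.83 ± 0.19 and -0.95 ± 0.19 in the cold (adjusted p = 0.0349 and 0.0214). Of the 2 enzymes called at a single temperature, the C4 oxidase Msmo1 passed at RT (-1.10 ± 0.18, adjusted p = 0.0114, in the cold -0.59 ± 0.18, adjusted p = 0.0773) and the desaturase Sc5d in the cold (-1.23 ± 0.26, adjusted p = 0.0229, at RT -0.93 ± 0.26, adjusted p = 0.0895).

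The remaining enzymes of this segment did not pass on HFD. They were the isomerase Ebp, with 15.6 ± 0.988 CPM in NCD RT and 12.8 ± 0.619 CPM in HFD RT (-0.29 ± 0.14), the keto reductase Hsd17b7 (-0.63 ± 0.17 at RT and -0.44 ± 0.16 in the cold) and the final reductase Dhcr7 (-0.76 ± 0.27 and -0.80 ± 0.27). At RT every HFD library lay below every NCD library for each of these 3 genes. Over the whole pathway, 17 of 19 enzymes had no overlap and were lower on HFD at RT and 16 of 19 in the cold, where 12.9% and 13.1% of all genes had no overlap and were lower.

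**Figure D2:**
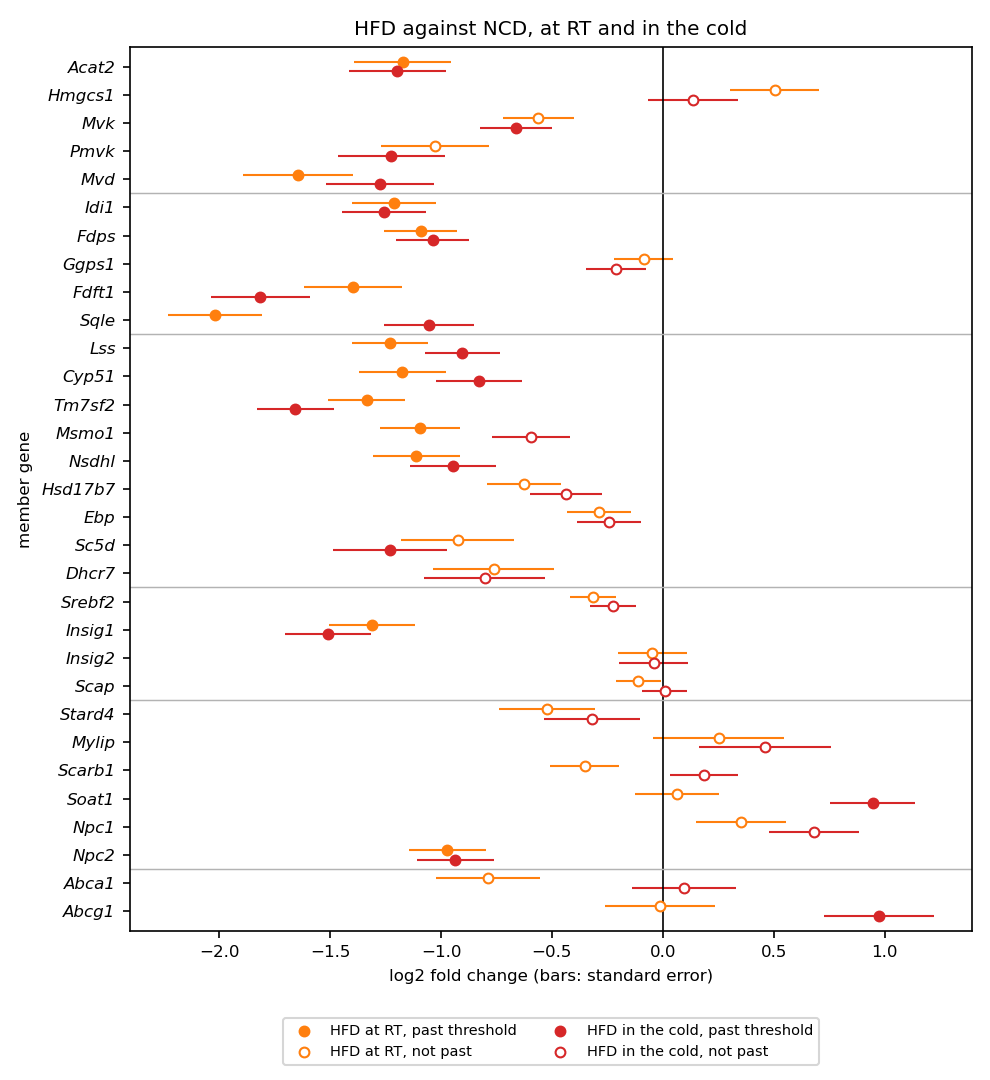
Log2 fold change of HFD over NCD (horizontal axis, points, with bars for the standard error) for the 31 members (vertical axis) at RT (orange) and in the cold (red). Filled points passed the threshold, which 13 members did at RT and 17 in the cold, and Hmgcs1 was the only 1 of the 19 enzymes to the right of 0.

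All 13 members called at RT and all 17 called in the cold had no overlap of the diets. Their sign was therefore bound to be the same in both batches, which adds no separate support. In the batch of replicates 1 and 2 alone, which holds 2 libraries a group, 2 members were called in each diet contrast, Fdft1 and Sqle at RT and Fdft1 and Tm7sf2 in the cold. The count in the cold fell to 5 without NCD cold replicate 3, to 6 without HFD cold replicate 1 and to 8 without NCD cold replicate 1 or HFD cold replicate 3. The summed skeletal muscle markers were highest within their groups in NCD RT replicate 2, NCD cold replicate 2, HFD RT replicate 3 and HFD cold replicate 3, and without NCD RT replicate 2 or HFD RT replicate 3 there were 12 and 10 members called at RT. Idi1, Fdps, Fdft1, Tm7sf2 and Insig1 were called in the cold in each of the 12 fits that left out 1 library. Other members lower at both temperatures were called less steadily. Cyp51 was called in the cold in 5 of the 12 fits (adjusted p up to 0.123) and Nsdhl in 8 (up to 0.101). At RT, Acat2 was called in 7 of the 12 (adjusted p up to 0.0795). The summed level of the 6 general adipocyte markers was 9902 to 11560 CPM in NCD RT and 7861 to 10100 CPM in HFD RT, and 13150 to 15380 CPM in NCD cold and 8135 to 10600 CPM in HFD cold, with 0 of 6 genes called at RT and 1 lower in the cold. The summed brown adipocyte markers were higher in each HFD RT than in each NCD RT library, with 1 of 8 genes called, and those of HFD cold lay below those of NCD cold, with 0 of 8 called. The 5 fibroblast markers summed to 1036 to 1615 CPM in NCD RT and 503.9 to 719 CPM in HFD RT, with 0 of 5 called. Endothelial markers summed to 482.7 to 594 CPM in NCD RT and 678 to 912 CPM in HFD RT, and to 687 to 781 CPM in NCD cold and 924 to 1037 CPM in HFD cold, and 1 of 5, Pecam1, was called at RT (0.72 ± 0.11, adjusted p = 0.00786) and 0 in the cold. At RT the sums on HFD were lower without overlap for the 5 erythroid markers (1208 to 1772 CPM on NCD and 792 to 1165 CPM on HFD), with 0 of 5 called. The part of all these lists in the result was not tested.

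Fewer members were called in the cold contrasts than in the diet contrasts. On NCD, 1 of the 31 members was called and rose, beside 6.27% of all genes (3.72% higher and 2.55% lower). On HFD, 5 members rose and 1 fell, beside 9.58% of all genes (5.39% higher and 4.19% lower). The median log2 fold change of the 31 members was -0.01 on NCD and 0.20 on HFD, beside -0.01 and -0.04 over all genes. The summed brown adipocyte markers stood at 6034 to 7483 CPM in NCD RT and 19650 to 22890 CPM in NCD cold, and at 8040 to 10350 CPM in HFD RT and 15410 to 18830 CPM in HFD cold, with 4 and 3 of 8 genes called. On NCD the fibroblast markers summed to 1036 to 1615 CPM at RT and 473 to 556 CPM in the cold, with 3 of 5 called lower (Col3a1, Col1a1 and Lum), and the endothelial markers to 482.7 to 594 CPM and 687 to 781 CPM, with Pecam1 called higher. On HFD the endothelial sums were also higher in the cold without overlap (678 to 912 and 924 to 1037 CPM), with 0 of 5 called. The general adipocyte markers summed to 9902 to 11560 CPM in NCD RT and 13150 to 15380 CPM in NCD cold, with 2 of 6 called higher (Fabp4 and Cidec). On HFD their sums overlapped (7861 to 10100 CPM at RT and 8135 to 10600 CPM in the cold), with 1 of 6, Adipoq, called lower. The part of these lists in the members' values was not tested.

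Hsd17b7, which reduces the C3 ketone during removal of the C4 methyl groups, rose in the cold on both diets. It stood at 15.1, 23.7 and 18.9 CPM in NCD RT and 43.6, 40.2 and 51.4 CPM in NCD cold, a 2.35-fold rise (1.23 ± 0.16, adjusted p = 0.00189). On HFD it stood at 13.2, 12.9 and 11.4 CPM at RT and 37.5, 29.9 and 32.5 CPM in the cold, a 2.68-fold rise (1.42 ± 0.17, adjusted p = 0.000841). The temperatures did not overlap on either diet, and Hsd17b7 was called in each of the 12 fits without 1 library in both contrasts. It was the only member past the threshold in the cold on NCD, where 2 members were called without NCD cold replicate 3 or HFD cold replicate 3 and 3 without HFD RT replicate 1.

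On HFD, Sqle rose 2.88-fold in the cold (1.53 ± 0.21, adjusted p = 0.00148), so that the 27.4 to 37.1 CPM of HFD cold stood above the 8.33 to 15.4 CPM of HFD RT and below the 44.3 to 45.7 CPM of NCD RT. Cyp51 rose from 38.5, 27.1 and 23.2 CPM to 58.7, 61.0 and 51.5 CPM (0.95 ± 0.19, adjusted p = 0.0105), and Msmo1 from 15.3, 14.5 and 11.7 CPM to 32.4, 24.1 and 20.1 CPM (0.89 ± 0.18, adjusted p = 0.0101). For Sqle, Cyp51 and Msmo1 every HFD cold library lay above every HFD RT library. Fdft1 moved the other way and fell 2.10-fold (-1.07 ± 0.22, adjusted p = 0.0109), without overlap of the temperatures. On NCD the log2 fold changes of the same genes in the cold were 0.56 ± 0.20 for Sqle, 0.60 ± 0.19 for Cyp51, 0.38 ± 0.18 for Msmo1 and -0.65 ± 0.22 for Fdft1, with adjusted p = 0.118, 0.0838, 0.235 and 0.0959, and none passed.

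Libraries with the same replicate number at RT and in the cold deviated together from their group means, and so the cold contrasts were also fitted with this number as a block in each diet. On NCD, 6 members (5 higher and 1 lower) were then called in place of 1, while the share of all genes called went from 6.27% to 8.86% (4.48% higher and 4.38% lower). On HFD, 8 members (6 higher and 2 lower) were called in place of 6, and 12.9% of all genes (6.11% higher and 6.75% lower) in place of 9.58%. The blocked fit added Hmgcs1 (log2 fold change 0.59, adjusted p = 0.0241), Idi1 (0.51, adjusted p = 0.0429), Sqle (0.55, adjusted p = 0.0277) and Cyp51 (0.60, adjusted p = 0.0349) among the enzymes, and Npc2 (-0.57, adjusted p = 0.0387), which was lower. On HFD the block added Fdps (0.57, adjusted p = 0.0225) and Npc2 (-0.52, adjusted p = 0.0410). Without the block, Idi1 stood at log2 fold changes of 0.52 on NCD and 0.48 on HFD and Fdps at 0.49 and 0.55, with adjusted p between 0.0514 and 0.125. Among the other enzymes, Acat2, Mvk, Pmvk, Mvd, Tm7sf2, Nsdhl, Ebp and Sc5d had log2 fold changes in the cold between -0.33 and 0.33 on either diet, and their temperatures overlapped. Ggps1, Lss and Dhcr7 had log2 fold changes of -0.23, -0.44 and -0.53 on NCD and of -0.35, -0.12 and -0.57 on HFD, and did not pass.

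**Figure D3:**
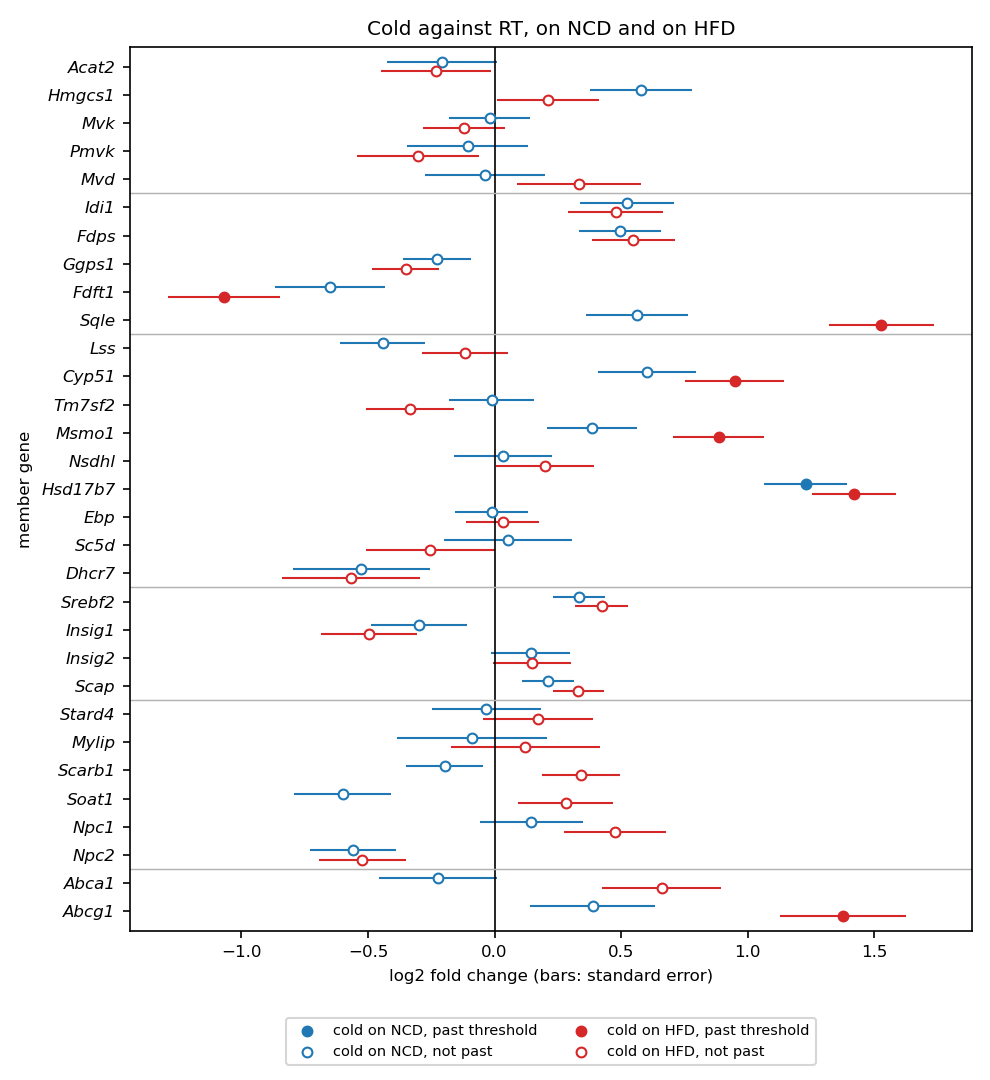
Log2 fold change of cold over RT (horizontal axis, points, with bars for the standard error) for the 31 members (vertical axis) on NCD (blue) and on HFD (red). Filled points passed the threshold, which Hsd17b7 did on both diets and Fdft1, Sqle, Cyp51, Msmo1 and Abcg1 did on HFD.

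Within single libraries, pairs of enzymes of the same pathway stood in different proportions. The comparisons in this paragraph were chosen after the values had been seen and are given without a test. The log2 CPM of Hmgcs1 minus the mean log2 CPM of the other 18 enzymes was 2.73, 2.30 and 2.77 in NCD RT, 3.20, 3.14 and 2.99 in NCD cold, 4.17, 3.74 and 4.51 in HFD RT and 4.29, 3.99 and 4.33 in HFD cold. This difference was larger in all 6 HFD libraries than in all 6 NCD libraries. The log2 CPM difference of Sqle minus Fdft1 was -1.49, -1.31 and -1.25 in NCD RT, 0.49, -0.22 and -0.53 in NCD cold, -1.71, -2.17 and -2.11 in HFD RT and 0.76, 0.70 and 0.37 in HFD cold. It was higher in each cold library than in each RT library. The summed level of the 19 enzymes was 1871 ± 131 CPM in NCD RT, 2069 ± 364 CPM in NCD cold, 1202 ± 241 CPM in HFD RT and 1302 ± 25.7 CPM in HFD cold.

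**Figure D4:**
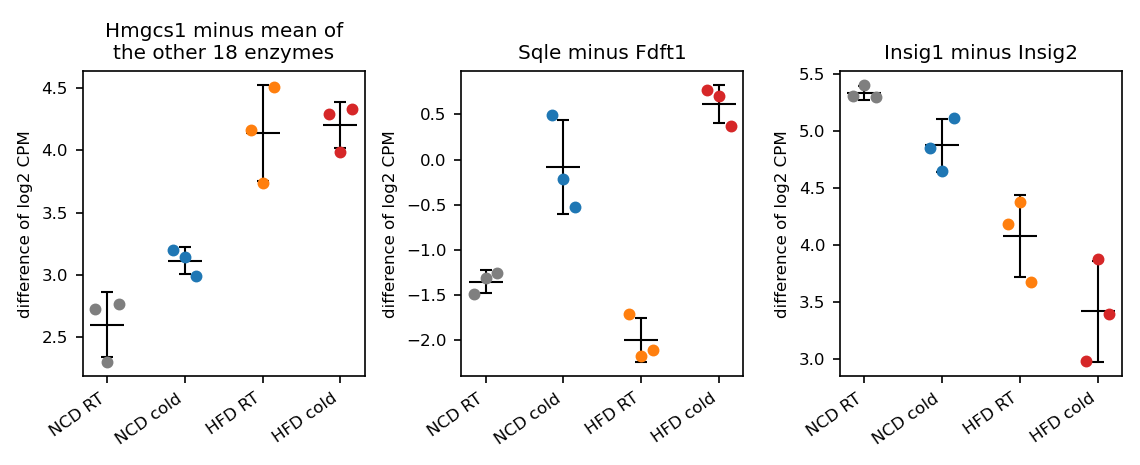
Differences of log2 CPM within each library (vertical axes, points) for Hmgcs1 minus the mean of the other 18 enzymes, Sqle minus Fdft1, and Insig1 minus Insig2, in the 4 groups (horizontal axes), with the mean and SD (bars, n = 3). The first difference averaged 2.60 in NCD RT and 4.14 in HFD RT, the second -1.35 in NCD RT and 0.61 in HFD cold, and the third 5.34 in NCD RT and 3.42 in HFD cold.

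Insig1, whose protein retains SCAP in the endoplasmic reticulum and whose gene is itself a known SREBP target, fell on HFD together with the enzymes. It was the most abundant member per length in NCD RT. It stood at 956, 1082 and 1059 CPM in NCD RT and 451, 431 and 367 CPM in HFD RT (2.48-fold lower, -1.31 ± 0.19, adjusted p = 0.00719). In the cold it stood at 938, 617 and 963 CPM on NCD and 258, 369 and 258 CPM on HFD (2.85-fold lower, -1.51 ± 0.19, adjusted p = 0.00233), and all 6 HFD libraries lay below all 6 NCD libraries. Its changes in the cold were -0.30 ± 0.19 on NCD and -0.50 ± 0.19 on HFD and did not pass. Insig2, the second INSIG gene, stood at 25.4 ± 1.43 CPM in NCD RT, 28.1 ± 3.95 in NCD cold, 24.6 ± 3.95 in HFD RT and 27.3 ± 4.49 in HFD cold, with overlapping groups in every contrast.

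Srebf2, which encodes SREBP2, was higher in each cold library than in each RT library of the same diet, but by less than the fold threshold. Its levels were 39.0, 42.0 and 41.9 CPM in NCD RT, 51.3, 49.3 and 54.4 CPM in NCD cold, 35.9, 34.7 and 28.4 CPM in HFD RT and 47.0, 43.8 and 41.9 CPM in HFD cold. The log2 fold change in the cold was 0.33 ± 0.10 on NCD (adjusted p = 0.0770) and 0.42 ± 0.10 on HFD (adjusted p = 0.0246), and on HFD against NCD it was -0.31 ± 0.10 at RT (adjusted p = 0.145) and -0.22 ± 0.10 in the cold (adjusted p = 0.227). Scap, the escort of SREBP2, was likewise higher in each cold library than in each RT library of the same diet, with 54.5 ± 1.69, 63.1 ± 5.59, 50.5 ± 5.51 and 63.4 ± 2.40 CPM in NCD RT, NCD cold, HFD RT and HFD cold, and passed in no contrast. A gene model on the opposite strand, 5830462I19Rik, shares 13.2% of its exon bases. The transcript of SREBP2 therefore changed by at most 0.42 on the log2 scale in any of the contrasts, and these libraries do not measure its cleavage.

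**Figure D5:**
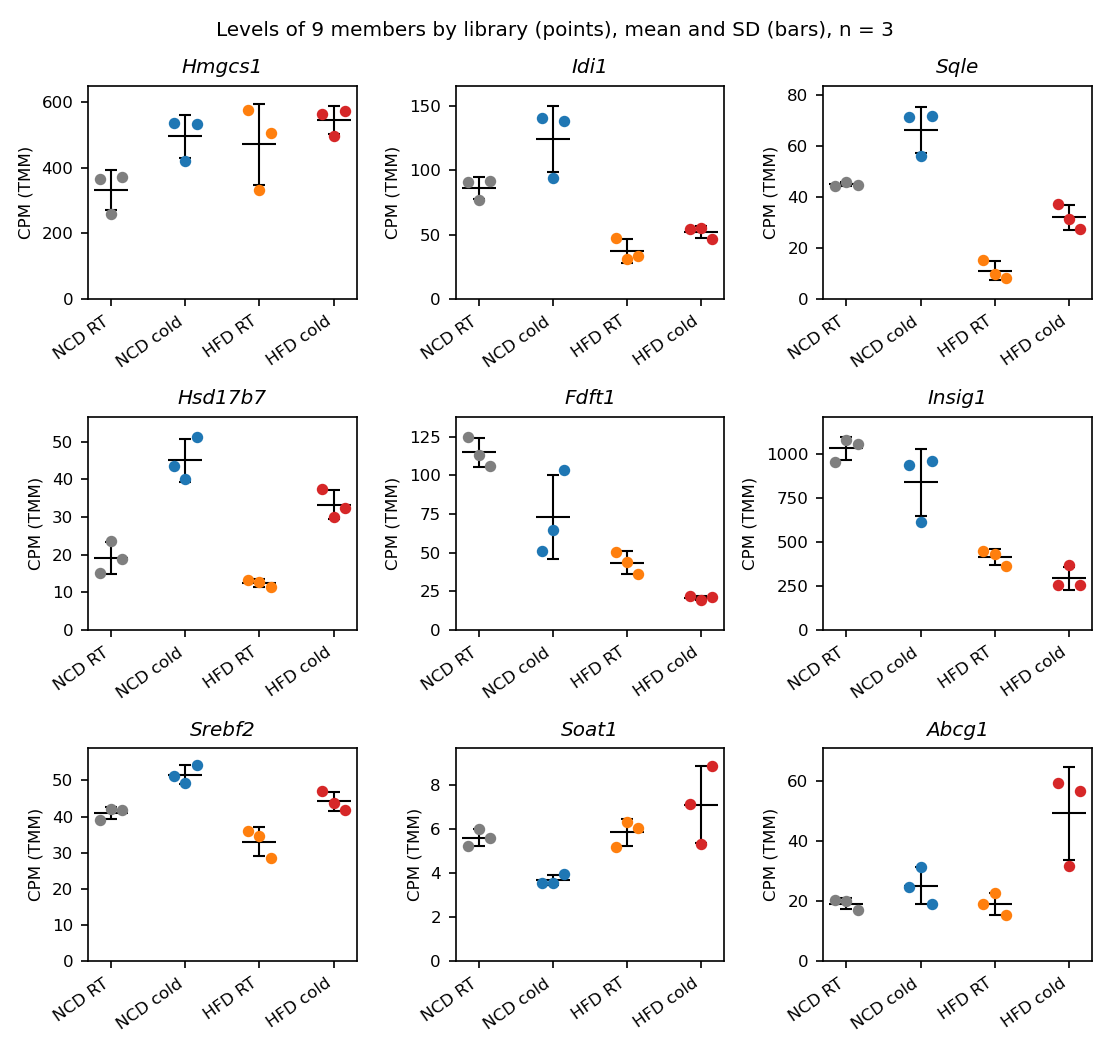
CPM (vertical axes, each starting at 0) of 9 members in the 4 groups (horizontal axes), with points for the libraries and bars for the mean and SD (n = 3). Hsd17b7 was higher in the cold on both diets, Fdft1 and Insig1 were lowest in HFD cold, and Abcg1 was highest in HFD cold.

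Promoter sequences were examined because most of the enzymes were lower on HFD and Hmgcs1 was not. RefSeq windows on GRCm38.p6, from 250 bases before to 50 after an annotated start, were matched for 24 of the 31 members and 16 of the 19 enzymes. Fdps, Fdft1 and Sqle were the enzymes without a window. The sterol regulatory element, searched on both strands as TCACNCCAC, was found in 1.24% of all 32851 windows and among the members in that of Hmgcs1 alone, where the match TCACCCCAC ran from base -137 to base -129 relative to the start. The shorter form TCACNNCA, which every match of the longer form contains, was found in windows of 8 of the 16 enzymes and in 13.8% of all windows. The NF-Y box CCAAT was found for 15 of the 16 enzymes and in 37.4% of all windows, the SP1 box GGGCGG for 14 and in 35.7%, and the E-box CACGTG for 3 and in 7.15%. An enzyme was counted when any of its windows held a match, so these counts are not shares of windows. Of the 30 windows of the 24 members, 3.33% held the longer form, 36.7% the shorter form, 70.0% the NF-Y box, 83.3% the SP1 box and 23.3% the E-box. A match is a run of letters and not a measured binding site. The 250 bases before the start are shown for Hmgcs1, Hsd17b7, Cyp51 and Insig1, which differed in their response to diet and cold, 5′ to 3′ on the strand of the gene, with matches of the sterol element, its shorter form and the NF-Y box (as CCAAT or, on the other strand, ATTGG) in capitals. They span chr13:119690101-119690350 (plus strand), chr1:169969206-169969455 (minus strand), chr5:4104698-4104947 (minus strand) and chr5:28071162-28071411 (plus strand).
Hmgcs1: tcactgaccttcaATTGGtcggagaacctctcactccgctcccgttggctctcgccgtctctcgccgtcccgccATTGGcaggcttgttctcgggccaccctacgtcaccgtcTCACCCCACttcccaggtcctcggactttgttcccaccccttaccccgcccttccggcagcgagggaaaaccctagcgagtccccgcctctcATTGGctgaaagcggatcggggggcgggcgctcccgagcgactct
Hsd17b7: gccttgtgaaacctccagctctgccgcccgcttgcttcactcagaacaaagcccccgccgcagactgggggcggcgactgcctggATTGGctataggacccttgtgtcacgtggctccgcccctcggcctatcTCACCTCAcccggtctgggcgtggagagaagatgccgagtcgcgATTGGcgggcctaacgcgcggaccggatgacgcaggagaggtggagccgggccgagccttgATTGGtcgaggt
Cyp51: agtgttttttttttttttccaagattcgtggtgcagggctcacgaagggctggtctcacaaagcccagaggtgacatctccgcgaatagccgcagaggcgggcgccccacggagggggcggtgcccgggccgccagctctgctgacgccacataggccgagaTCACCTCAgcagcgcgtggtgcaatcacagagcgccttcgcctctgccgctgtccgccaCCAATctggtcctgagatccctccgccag
Insig1: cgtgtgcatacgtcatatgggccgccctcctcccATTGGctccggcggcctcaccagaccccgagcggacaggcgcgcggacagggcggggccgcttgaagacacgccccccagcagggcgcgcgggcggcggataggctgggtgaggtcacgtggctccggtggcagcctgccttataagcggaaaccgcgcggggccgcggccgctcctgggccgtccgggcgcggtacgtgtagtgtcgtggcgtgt
Hmgcs1, which had overlapping diets, thus held the sterol element and 3 NF-Y boxes in this stretch. Hsd17b7, which rose in the cold on both diets, held 1 shorter form and 3 NF-Y boxes, and Cyp51 held 1 of each. Insig1, which fell on HFD, held 1 NF-Y box and neither form of the sterol element.

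Genes of uptake, intracellular transport and storage did not move as a group. Npc2, a soluble lysosomal protein that hands cholesterol to NPC1, was the 1 member of this role that fell on HFD at both temperatures. It stood at 538, 412 and 459 CPM in NCD RT, 349, 244 and 363 CPM in NCD cold, 267, 236 and 216 CPM in HFD RT and 141, 185 and 173 CPM in HFD cold. The log2 fold change on HFD was -0.97 ± 0.17 at RT (adjusted p = 0.0162) and -0.93 ± 0.17 in the cold (adjusted p = 0.0131), each called in 9 of the 12 fits without 1 library. In the cold against RT, Npc2 was lower without overlap on both diets but was not called (-0.56 ± 0.17 on NCD and -0.52 ± 0.17 on HFD, adjusted p = 0.0727 in both). It was called in 2 of 9 other fits on each diet, the replicate block given above among them. On HFD it was also called in 1 of the 12 fits without 1 library. Npc1, the membrane partner of NPC2, stood at 64.1, 60.4 and 68.5 CPM in NCD RT, 69.1, 75.2 and 69.1 CPM in NCD cold, 75.9, 85.9 and 84.2 CPM in HFD RT and 164, 82.2 and 95.9 CPM in HFD cold. Its diets did not overlap at either temperature, with HFD higher, but it passed in no contrast (HFD in the cold 0.68 ± 0.20, adjusted p = 0.0774), and 1 library, HFD cold replicate 1, stood far above the others.

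Soat1, the enzyme that esterifies cholesterol for storage, was the least abundant member per length in all 4 groups. It stood at 5.23, 5.99 and 5.56 CPM in NCD RT, 3.55, 3.53 and 3.95 CPM in NCD cold, 5.15, 6.33 and 6.04 CPM in HFD RT and 7.11, 5.33 and 8.83 CPM in HFD cold. In the cold it was 1.93-fold higher on HFD than on NCD (0.95 ± 0.19, adjusted p = 0.0194), whereas at RT the diets overlapped (0.06 ± 0.19). The call in the cold was kept in 8 of the 12 fits without 1 library (adjusted p up to 0.0818). The 3 NCD cold libraries were the lowest of the 12. The sterol carrier Stard4, the ubiquitin ligase Mylip (which marks the LDL receptor for breakdown) and the HDL receptor Scarb1 passed in no contrast. Their group means ranged from 7.49 to 10.7 CPM for Stard4, from 27.9 to 38.4 CPM for Mylip and from 40.7 to 51.9 CPM for Scarb1, and the largest changes were -0.52 ± 0.22 for Stard4 on HFD at RT, 0.46 ± 0.30 for Mylip on HFD in the cold and -0.35 ± 0.15 for Scarb1 on HFD at RT.

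Of the 2 exporters, Abcg1, which moves cholesterol to HDL, rose in the cold on HFD. It stood at 19.1, 22.6 and 15.3 CPM in HFD RT and 59.4, 31.6 and 56.6 CPM in HFD cold, a 2.60-fold rise (1.38 ± 0.25, adjusted p = 0.00653) that was called in each of the 12 fits without 1 library. On NCD it stood at 20.5, 20.0 and 17.1 CPM at RT and 24.7, 31.4 and 19.2 CPM in the cold, where the temperatures overlapped (0.39 ± 0.25, adjusted p = 0.413). In the cold it was thus 1.96-fold higher on HFD (0.97 ± 0.25, adjusted p = 0.0452), with HFD cold replicate 2 at the level of NCD cold replicate 2. This diet call was kept in 3 of the 12 fits without 1 library (without NCD cold replicate 2, HFD RT replicate 3 or HFD cold replicate 2), with an adjusted p of up to 0.163 in the rest, and in 5 of 9 other fits. Abca1, which loads cholesterol onto apolipoprotein A-I, stood at 351, 403 and 428 CPM in NCD RT, 337, 349 and 327 CPM in NCD cold, 217, 273 and 196 CPM in HFD RT and 224, 357 and 501 CPM in HFD cold. It was lower without overlap in HFD RT than in NCD RT (-0.79 ± 0.23, adjusted p = 0.112), spread widely in HFD cold and passed in no contrast.

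Macrophage markers were in part higher in the same HFD cold libraries as Abcg1 and Soat1. None of the 6 was at 0, and they summed to 168.2, 118.7 and 262.5 CPM in HFD cold replicates 1, 2 and 3, against 122 to 173 CPM in HFD RT, 91.7 to 125 CPM in NCD cold and 121.8 to 149.6 CPM in NCD RT. HFD cold replicates 1 and 3 held the most Abcg1 and Soat1 and also the most Cd68, a lysosomal protein of macrophages, with 16.6 and 19.2 CPM, whereas replicate 2 held 4.88 CPM. Cd68 passed in the cold on HFD and the mannose receptor gene Mrc1 on HFD in the cold, 1 of 6 markers in each contrast. The markers did not move alike. Their log2 fold changes in the cold on HFD were 1.72 for Cd68, 0.59 for Mrc1, 0.48 for Cd163, 0.31 for Lyz2, 0.01 for Csf1r and -0.17 for Adgre1. In HFD cold replicate 1, Adgre1 (10.2 CPM) and Csf1r (23.3 CPM) lay below every HFD RT library, whereas Mrc1 and Cd163 lay above. The part of macrophage RNA in the values of Abcg1 and Soat1 was not tested.

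The difference between the diets in the response to cold was tested as an interaction, and 0 members passed an adjusted p under 0.05 by edgeR's quasi-likelihood test, as did 0% of all genes. At an unadjusted p under 0.05 there were 5 members and 6.52% of all genes, and DESeq2 also called 0 members, although it called 53 of the 37458 genes it was run on. Without a filter on counts edgeR called 27 of the same number of genes and 0 members. The 5 were Sqle (difference of log2 fold changes, HFD minus NCD, 0.97 ± 0.29), Abcg1 (0.99 ± 0.35), Abca1 (0.88 ± 0.33), Soat1 (0.88 ± 0.27) and Scarb1 (0.54 ± 0.22), with adjusted p of 0.591 to 0.740. The rise of Sqle or Abcg1 in the cold on HFD was therefore not shown to differ from that on NCD. The unadjusted 95% interval for Sqle ran from 0.34 to 1.59 and that for Hsd17b7 from -0.32 to 0.70.

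When all 4 groups were compared at once, 10 members differed at an adjusted p under 0.001, against 2.55% of all genes. They were Idi1, Fdps, Fdft1, Sqle, Lss, Cyp51, Tm7sf2 and Hsd17b7 among the enzymes, with Insig1 and Npc2. The adjusted p was smallest for Sqle, at 0.000163, and stood at 0.000834 for Npc2. At an adjusted p under 0.05 there were 22 members, against 24.3% of all genes, and the 9 that did not pass were Hmgcs1, Ggps1, Ebp, Insig2, Scap, Stard4, Mylip, Scarb1 and Abca1. Leaving out 1 library gave 3 to 10 members at 0.001, with 3 without NCD RT replicate 1 or 3, HFD RT replicate 2 or HFD cold replicate 3, 4 without NCD RT replicate 2 or HFD cold replicate 1 or 2, 5 without NCD cold replicate 1 or HFD RT replicate 3, and 6 without NCD cold replicate 3.

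Per kilobase of exon, the order of the members changed with diet and cold. In NCD RT, Insig1 stood first at 334 ± 21.6 CPM per kb, followed by Acat2 at 153 ± 13.9, Npc2 at 86.3 ± 11.8 and Hmgcs1 at 72.2 ± 13.5. The last 2 of these differed by less than the sum of their SDs. In HFD cold, Hmgcs1 stood first at 118 ± 9.22 CPM per kb, Insig1 next at 95.3 ± 20.9 and Acat2 next at 57.8 ± 16.3, with Hmgcs1 and Insig1 again within the sum of their SDs. Fdft1 went from place 8 at 27.1 ± 2.18 CPM per kb in NCD RT to place 23 at 4.91 ± 0.312 in HFD cold, and Hsd17b7 from place 27 at 3.77 ± 0.838 in NCD RT to place 15 at 8.83 ± 1.12 in NCD cold. Soat1 stood at 0.571 ± 0.0390 CPM per kb in NCD RT.

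Further genes of the pathway were counted from lists that hold no member. The genes named below were in part chosen after their values were seen. By the same threshold, cold changed 6.27% of all genes on NCD and 9.58% on HFD, and HFD changed 2.09% at RT and 4.75% in the cold. Whether the small counts in this paragraph exceed these shares was not tested. Of 11 tested genes of SREBP processing, 0 passed in the cold on NCD or on HFD at RT, and 1 was higher in each of the other contrasts, the sterol-binding Tmem97 in the cold on HFD (0.66 ± 0.19, adjusted p = 0.0492) and Erlin1 on HFD in the cold (0.74 ± 0.16, adjusted p = 0.0284). Of 15 further isoprenoid and sterol enzymes, 1 was lower on HFD at each temperature, beside 1.09% of all genes at RT and 2.69% in the cold. It was Cyb5r3, the cytochrome b5 reductase that passes electrons to the sterol oxidases (-1.02 ± 0.13 at RT, adjusted p = 0.00342, and -0.73 ± 0.13 in the cold, adjusted p = 0.0107). In the cold, 1 of the 15 was higher on NCD, Pdss1 of coenzyme Q synthesis (0.59 ± 0.16, adjusted p = 0.0450), and on HFD Pdss1 and Rabggtb were higher and Acat1 and Coq2 lower, by -0.60 ± 0.17 to 0.71 ± 0.15 on the log2 scale. Of the 11 tested genes of LXR action and efflux, the coactivator gene Ncoa1 rose and the transporter gene Abca2 fell in the cold on both diets (0.59 ± 0.14 and -0.89 ± 0.23 on NCD, 0.97 ± 0.14 and -1.32 ± 0.24 on HFD). Lpcat3, a lysophospholipid acyltransferase and known LXR target, fell on HFD at RT (-0.72 ± 0.13) and rose in the cold on HFD (0.71 ± 0.13), where Cyp27a1 was lower (-0.70 ± 0.16), and 0 of the 11 were called on HFD in the cold.

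Among 17 tested genes of uptake, lysosomal transport and storage, cold raised 4 and lowered 1 on NCD, beside 3.72% and 2.55% of all genes, and raised 5 and lowered 0 on HFD, beside 5.39% and 4.19% of all genes. Lipa, the lysosomal acid lipase that frees cholesterol from its esters, rose on NCD from a mean of 172 to 385 CPM (1.16 ± 0.14, adjusted p = 0.00103) and on HFD from 231 to 395 CPM (0.77 ± 0.14, adjusted p = 0.00614). Scarb2, a lysosomal membrane protein, rose from 215 to 413 CPM on NCD (0.94 ± 0.09, adjusted p = 0.000498) and from 218 to 527 CPM on HFD (1.27 ± 0.10, adjusted p = 0.000155). These lysosomal genes rose in the cold, while the members Npc1 and Npc2 did not pass there as reported. In some other fits, the replicate block among them, Npc2 was called lower. On HFD against NCD at RT, 1 of the 17 was higher and 1, Lrpap1, lower, beside 0.992% and 1.09% of all genes. In the cold, 2 were higher on HFD and 0 lower, beside 2.06% and 2.69% of all genes. Nceh1, a cholesteryl ester hydrolase that is also known from macrophages, was higher on HFD in the cold (1.80 ± 0.38, adjusted p = 0.0232). The lipoprotein receptor gene Lrp1 was higher on HFD at both temperatures (0.69 ± 0.13 and 0.55 ± 0.13, adjusted p = 0.0237 and 0.0395).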

How the data were processed

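Total RNA libraries of iBAT were analysed in 12 samples, 3 for each diet and temperature, grouped by their labels. The authors filtered reads with cutadapt, used salmon for quantification and took GENCODE M22 plus RNAcentral 5 as the transcript reference, and the submitters' processing notes name GRCm38 and DESeq2. The authors deposited gene-level estimated counts, as whole numbers and not normalised, with replicates kept apart. Whether counting used strand was not given in the sources used here.

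Genes were filtered with filterByExpr (minimum count 10), scaled with TMM and tested in edgeR 4.0.16 (R 4.3.3, limma 3.58.1) with a quasi-likelihood model of 4 group means over all 12 libraries. P-values were adjusted with the Benjamini-Hochberg method over all 16737 genes. A contrast was called where the adjusted p was below 0.05 and the log2 fold change larger than 0.5 in size, the interaction at 0.05 and the 4-group test at 0.001. Log2 CPM within libraries used a prior count of 2. Fold changes are fitted values and intervals are at 95% for single genes, without adjustment. Members, lists, markers and the naming rule were all set with earlier results of these data known, and 1 marker list is not reported here. All members were named, and of the other lists the 3 largest changes past the threshold in each contrast, while other genes of those lists and all values within single libraries were chosen after the values were seen.

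Libraries with the same replicate number were checked for shared deviations from their group means. For the 3 NCD pairs the correlation ran from 0.219 to 0.456 and for the 3 HFD pairs from 0.155 to 0.386, so the number was taken to pair RT with cold within a diet. Pairs with different numbers ran from -0.289 to 0.0439 on NCD and from -0.268 to 0.134 on HFD. The highest of these on HFD was close to the lowest same-number pair there. Where this pairing comes from was not given, and it rests on these correlations. Replicate 3 was also the other batch, and the part of batch and of muscle content in the correlations was not tested. Alternatives were DESeq2 1.42.0, its size factors in edgeR, 2 other count filters, batch as a term, 1 batch alone, replicate blocks, only the 6 libraries compared, another threshold and each library left out in turn. The steps were tested on simulated data. Coordinates and exon lengths came from GENCODE M21 on GRCm38 and promoter windows from RefSeq on GRCm38.p6, read with Python 3.11.15. Counts of 10 members share exon bases with another gene, 5 of them 10% or more.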

Additional observations from a re-analysis of the deposited data

How the results depend on the processing

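The number of members called depended on the processing. Of the 37 called gene and contrast pairs, 0 changed sign in any fit. Their groups did not overlap and every fit reused the same libraries or a part of them, so a change of sign was hardly possible. In the cold on NCD, 1 member was called as reported, 4 by DESeq2 (2 higher and 2 lower), 2 with replicate number as a term over all libraries, 6 with the replicate block within diet, 2 with only the 6 libraries compared and 1 to 3 with 1 library left out. In the batch of replicates 1 and 2 alone that contrast again gave 1 member, but it was Fdft1, lower in the cold, in place of Hsd17b7. In the cold on HFD the count was 6, dropped to 3 within that batch and was 6 to 9 with 1 library left out. For HFD at RT it was 13, with 2 in that batch and 9 to 15 with 1 library left out, and for HFD in the cold 17, with 2 in that batch, 6 with only the 6 libraries compared and 5 to 17 with 1 library left out. For the 4-group test it was 10, with 20 by DESeq2, 17 without a filter on counts, 0 in that batch, 22 at an adjusted p under 0.05 and 3 to 10 with 1 library left out. The interaction gave 0 members in every fit run. Fewer libraries are tested in that batch and in the fits on 6, and the cause of the other differences was not tested. For most of these other fits the share of all genes called in the same fit is not given. A change in the number of members called is therefore not shown to be particular to the members. Of the 37 pairs, 21 were called in each of the 12 fits without 1 library. For the diet contrasts the replicate numbers did not pair the libraries (correlations of -0.180 to 0.365 at RT and -0.211 to 0.196 in the cold, with 1 of 3 pairs over 0.1 in each), and a replicate block within temperature gave 12 members in place of 13 at RT and 13 in place of 17 in the cold. Depth limits Soat1 the most, at 60 counts in its lowest library.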

Other observations

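Genes of fatty acid synthesis and its regulation, many of which answer to the related factor SREBP1, were compared as a list of 13. The list also holds Srebf1, Mlxipl and Pnpla3, and Srebf1 was counted in the list of SREBP processing too. On HFD at RT 5 were lower and 0 higher, beside 1.09% and 0.992% of all genes, and on HFD in the cold 11 and 0, beside 2.69% and 2.06%. In the cold on HFD 9 were lower and 0 higher, beside 4.19% and 5.39% of all genes, and in the cold on NCD 1 and 0, beside 2.55% and 3.72%. The median log2 fold change of the list was -1.17 on HFD at RT, -1.83 on HFD in the cold, -0.97 in the cold on HFD and -0.45 in the cold on NCD, beside medians of -1.10, -0.95, 0.03 and -0.01 over the 19 enzymes of cholesterol synthesis and of 0.03, 0.02, -0.04 and -0.01 over all genes. Acly, which supplies cytosolic acetyl-CoA, had a mean of 8864 CPM in NCD RT, 6716 CPM in NCD cold, 3784 CPM in HFD RT and 335 CPM in HFD cold, with a log2 fold change in the cold on HFD of -3.50 ± 0.36 (adjusted p = 0.000354). The fatty acid synthase Fasn and the acetyl-CoA carboxylase Acaca had log2 fold changes of -2.88 ± 0.31 (adjusted p = 0.000489) and -2.76 ± 0.26 (adjusted p = 0.000285) in the same contrast, and of -3.44 ± 0.32 and -3.17 ± 0.27 on HFD in the cold (adjusted p = 0.000456 and 0.000333), where Acly stood at -4.32 ± 0.37 (adjusted p = 0.000333). In that cold contrast on HFD the cholesterol enzymes Sqle, Cyp51, Msmo1 and Hsd17b7 rose and Fdft1 fell. The desaturase Scd1 (-1.73 ± 0.27, adjusted p = 0.00887), the malic enzyme Me1 (-1.48 ± 0.19, adjusted p = 0.00342) and the acetyl-CoA synthetase Acss2 (-1.40 ± 0.26, adjusted p = 0.0186) had the largest falls of the list on HFD at RT, and Acss2 was the 1 gene of the list that fell in the cold on NCD (-0.99 ± 0.25, adjusted p = 0.0390). No test of the difference between the lists was run.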
